A study of Mus musculus with 18 samples.

Results

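The receptor, kinase and transcription factor genes of leukemia inhibitory factor (LIF) signalling, together with 4 STAT3-responsive genes, were followed in mouse embryonic stem cells (mESCs) before and after LIF was removed. The 9 genes, Lifr, Il6st, Jak1, Jak2, Stat3, Socs3, Pim1, Pim3 and Bcl3, were taken by symbol from the 20703 genes of the RNA-seq table, and all 9 were found there. The cells were the E14 line of mESCs, either WT or one of the clonal lines KO-1 and KO-2, in which both copies of Nsd1 lack exon 5 after cutting by Cas9 on either side of it. Nsd1 encodes a histone methyltransferase that places dimethylation on lysine 36 of histone H3. The Nsd1-KO lines were derived from E14 cells that already carried a 3×Flag tag at the end of Nsd1, and the sources do not say whether the WT libraries came from tagged or parental cells. Day 0 cells were grown with LIF and were supported by mouse embryonic fibroblasts (MEFs) or gelatin. Day 2 and day 4 cells had been in monolayer on gelatin for that long after both LIF and MEFs were withdrawn. Each line was sequenced at each day as 2 biological replicates, which gave 6 WT and 12 Nsd1-KO libraries. Loss of LIF, loss of feeders, time in culture and differentiation cannot be told apart in this design, and the Nsd1-KO group holds 2 clones, so that its 4 libraries per day are not 4 independent knockouts.

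LIF binds a receptor made of Lifr, its own chain, and Il6st, the gp130 chain shared by the cytokines of the IL-6 family. The kinases Jak1 and Jak2 sit on the inner parts of these chains and phosphorylate them and Stat3, which enters the nucleus and binds DNA at sites of the form TTCNNNGAA. In mESCs this route supports self-renewal, and Socs3, Pim1, Pim3 and Bcl3 are among the genes that respond to it. Socs3 in turn binds gp130 and JAK kinases and switches the signal off.

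Counts on genes ranged from 9309874 to 23921193 per library, and replicate libraries were compared as normalized counts, which are counts divided by the size factor of the library. The WT libraries of day 2 were the shallowest, at 9309874 and 9356867 counts, against a median of 15721347 over all libraries. Whether depth has a part in the WT values of day 2 was not tested. Nsd1 itself, counted over all of its exons and not over the deleted one alone, lay between 2111 and 3660 in the 6 WT libraries and between 575 and 1103 in the 12 Nsd1-KO libraries, which follows the labels. The summed level of 10 pluripotency markers was 96112 to 98148 in WT and 90391 to 93393 in Nsd1-KO cells at day 0, so that the day 0 cells carry the markers of mESCs. It was 23735 to 23920 in WT and 31872 to 32702 in Nsd1-KO cells at day 4. The libraries come from bulk cultures, in which fewer cells of a type and less RNA per cell cannot be told apart.

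At day 0 these genes were expressed over a wide range of levels. Compared per kilobase of annotated exon, Pim3 was highest in WT cells, at 1950 ± 145 normalized counts per kilobase (SD, n = 2). Pim1 followed at 801 ± 10 and Socs3 at 761 ± 38.3 per kilobase, with no overlap of their libraries. A middle group held Bcl3 at 280 ± 23.9, Il6st at 225 ± 2.53, Jak1 at 221 ± 16.7 and Stat3 at 205 ± 7.52 per kilobase. Jak1 overlapped both Il6st and Stat3 in these libraries, so that its order among them is not resolved. Lifr, at 121 ± 0.818, and Jak2, at 52.1 ± 1.54 per kilobase, were the lowest. In Nsd1-KO cells Pim3 was again first, at 1787 ± 83.6 per kilobase (SD, n = 4), and Jak2 last, at 66.6 ± 9.59. Socs3 and Pim1 overlapped there, and so did each pair of neighbours in the order Bcl3, Stat3, Jak1, Il6st and Lifr.

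**Figure D1:**
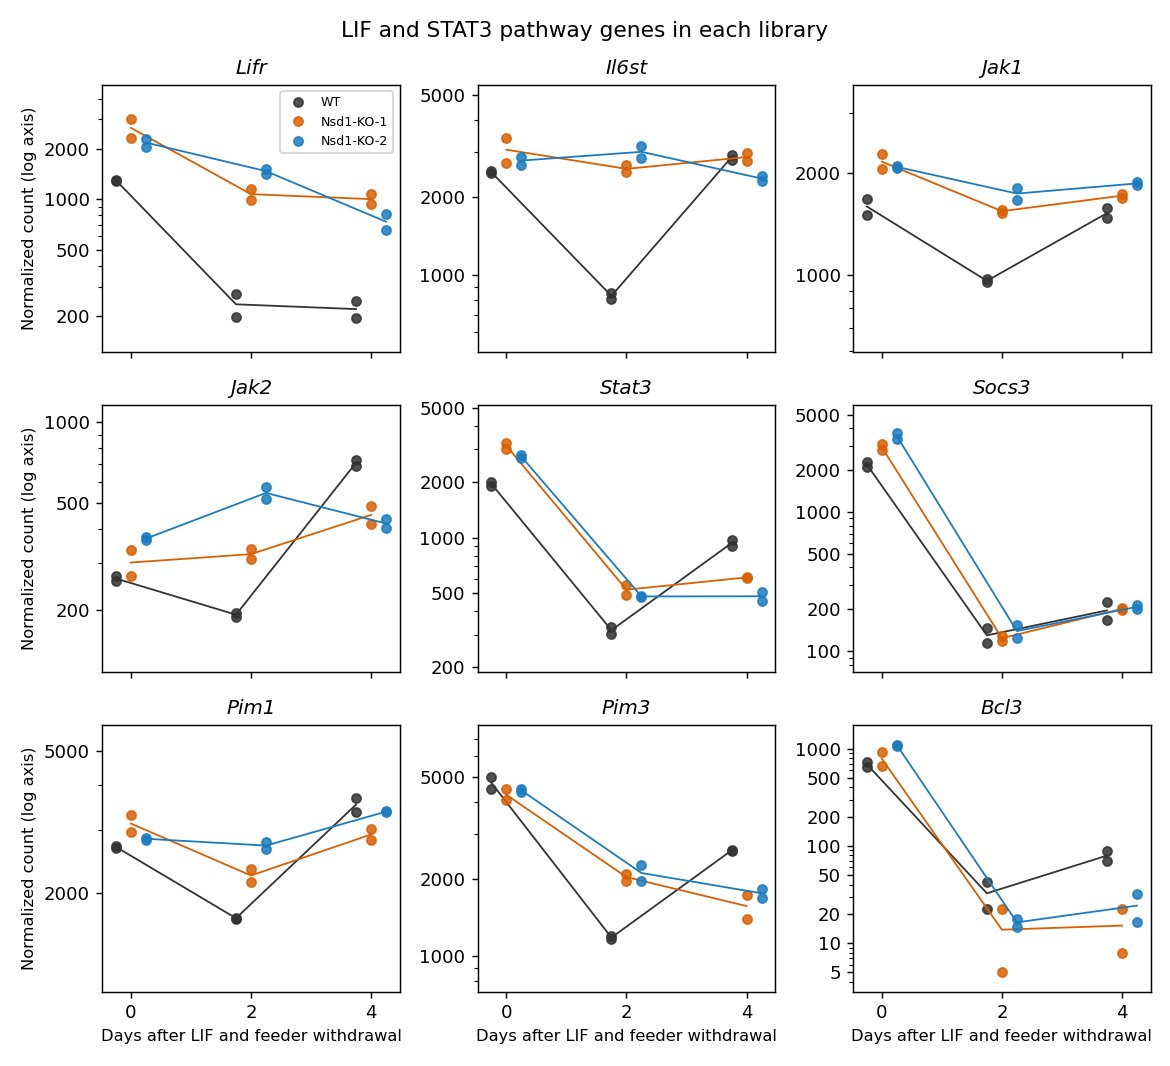
Normalized count (log axis, one panel per gene) of the 9 genes against days after LIF and feeder withdrawal in WT, Nsd1-KO-1 and Nsd1-KO-2 cells. Each point is a library and each line joins the means of 2 libraries. In WT cells Il6st dipped from 2501 to 829 at day 2 and was back at 2860 at day 4, while the Nsd1-KO libraries stayed between 2304 and 3409 throughout.

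In WT cells, 6 of the 9 genes were lower at day 2 than at day 0, namely Socs3, Stat3, Pim3, Bcl3, Lifr and Il6st. A gene was called where limma, adjusted over all 20703 genes, gave p under 0.01. The difference in variance stabilized (VST) value also had to be beyond 0.58 in size. VST values are on a log2 scale that is compressed, most of all for low counts. A VST difference is thus as a rule smaller in size than the log2 of the fold change printed beside it. Of all genes, 4.02% were called lower and 2.66% higher in this comparison. The median difference was -1.35 over the 9 genes and 0.0073 over all genes. None of the 9 was called higher.

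At day 4, WT cells no longer showed one direction. Socs3, Lifr, Bcl3, Stat3 and Pim3 were still below day 0, against 6.16% of all genes called lower, and Jak2 was above it, against 7.68% called higher. The median difference was -0.74, against -0.012 over all genes. Between day 2 and day 4, in a comparison added after the values were seen, 5 of the 9 genes rose in WT cells: Il6st, Jak2, Pim3, Pim1 and Stat3. Of all genes, 5.69% were called higher and 3.07% lower from day 2 to day 4. These time comparisons share their libraries, and the day 2 values enter both sides of the dip.

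In Nsd1-KO cells the same 5 genes, Socs3, Bcl3, Stat3, Pim3 and Lifr, were called lower at day 2 and at day 4, both against the same day 0 libraries. Of all genes, 1.77% were called lower and 1.43% higher at day 2, and 3.06% lower and 3.44% higher at day 4. The median difference over the 9 genes was -0.7 at day 2 and -1.07 at day 4, against -0.0042 and -0.0068 over all genes. From day 2 to day 4, 0 of the 9 genes were called in Nsd1-KO cells by limma on VST values, although 4 had an unadjusted p under 0.05. Of all 20703 genes, 6993 had such a p. Limma-voom on the recovered counts called 1 of the 9, Socs3, and 2140 of all genes. KO-2 alone gave 1 of the 9, Lifr, and the share of all genes in that fit is not reported here. By limma on VST values, 0.923% of all genes were called higher and 0.565% lower in that comparison.

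**Figure D2:**
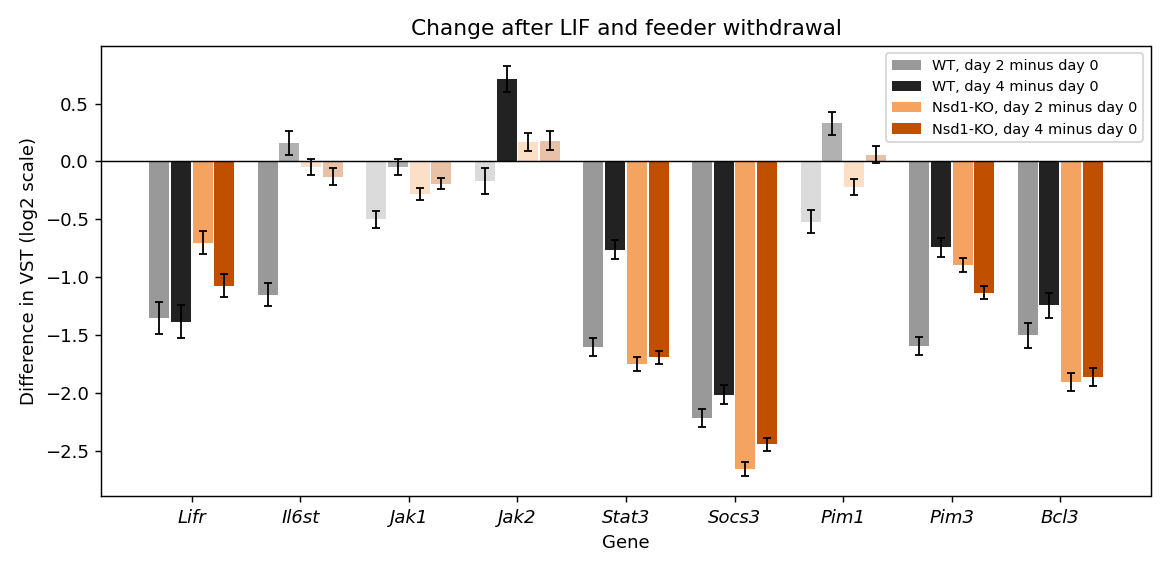
Difference in VST value (log2 scale) from day 0 for the 9 genes in WT and Nsd1-KO cells at day 2 and day 4. Bars are limma estimates with SE, and pale bars did not pass both thresholds. Il6st fell by 1.15 in WT cells at day 2 and differed by -0.05 in Nsd1-KO cells.

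The response itself was then compared between genotypes. At day 2, 2 of the 9 genes had a response that differed, Il6st and Pim3, both less negative in Nsd1-KO cells. For this test 2.08% of all genes were called higher and 1.11% lower. At day 4, 2 others differed, Stat3 and Bcl3, both more negative in Nsd1-KO cells, against 2.81% of all genes called higher and 4.13% lower. The change from day 2 to day 4, added after the values were seen, differed for Il6st, Pim3, Jak2 and Stat3, each less positive or more negative in Nsd1-KO cells, against 2.15% of all genes called higher and 4.27% lower. The fraction of genes called is small in each of these tests, and the count among the 9 rests on few genes.

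Compared with WT cells at the same day, Nsd1-KO cells had more Lifr at every day. At day 0 it was the 1 gene of the 9 that was called, against 1.73% of all genes called higher and 0.879% lower. At day 2 Lifr, Il6st and Pim3 were called higher, against 4.01% of all genes called higher and 2.37% lower. With each library centred on its median, 1007 genes were called higher and 355 lower at day 2, in place of 831 and 490. At day 4 Lifr alone was called, against 3.67% of all genes called higher and 3.91% lower. Limma-voom, which does not compress low counts, called 2 of the 9 at day 0, 6 at day 2 and 5 at day 4, the added genes being named below. It also called far more of all 20703 genes, 2752, 4949 and 4957 at these days, in place of 541, 1321 and 1569 on VST values.

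**Figure D3:**
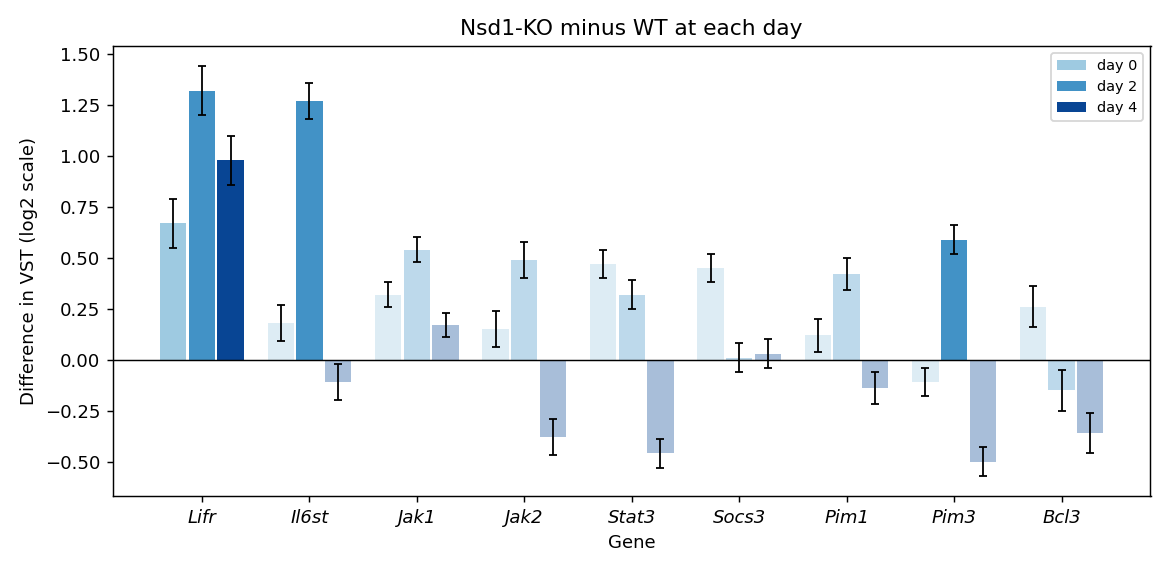
Difference in VST value (log2 scale) between Nsd1-KO (n = 4) and WT (n = 2) cells at day 0, 2 and 4 for the 9 genes. Bars are limma estimates with SE, and pale bars did not pass both thresholds. Lifr was higher by 0.67, 1.32 and 0.98, while Stat3, Jak2 and Pim3 lay above 0 at day 2 and below 0 at day 4.

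Lifr, which encodes the chain that makes the receptor specific for LIF, lies at chr15:7090614-7197489 on the plus strand (GRCm38). In WT cells its libraries read 1292 and 1305 normalized counts at day 0, 199 and 272 at day 2, and 245 and 196 at day 4. In KO-1 cells they read 3014 and 2326, then 993 and 1152, then 1072 and 931, and in KO-2 cells 2306 and 2058, then 1423 and 1522, then 654 and 814. Every Nsd1-KO library was above both WT libraries of its day. The WT level fell 5.51-fold by day 2 (VST difference -1.35 ± 0.14 SE, limma adjusted p = 2.38e-07) and was 5.9-fold lower at day 4. The Nsd1-KO level fell 1.91-fold by day 2 (-0.7 ± 0.1, limma adjusted p = 1.21e-05) and 2.8-fold by day 4. The day 2 difference from day 0 was -0.98 with KO-1 alone and -0.43 with KO-2 alone, the second under the fold threshold. Nsd1-KO cells thus held 1.87 times the WT level at day 0, 5.4 times at day 2 and 3.94 times at day 4. The VST differences were 0.67 ± 0.12, 1.32 ± 0.12 and 0.98 ± 0.12 (limma adjusted p = 2.93e-04, 3.64e-08 and 1.47e-06). The day 0 difference was 0.56 with KO-2 alone, under the fold threshold, and 0.79 with KO-1 alone. The difference in the day 2 response, 0.64 ± 0.17, missed the p threshold (limma adjusted p = 0.0115), with 0.37 in KO-1 and 0.92 in KO-2, the second past both thresholds. This Lifr difference also passed both with the clones as separate groups, at 0.64, under quantile normalization, at 0.65, with libraries centred on the median, at 0.68, by limma-voom, at 1.56, and in 4 of the fits that left out 1 library of KO-1 or KO-2, at 0.64 to 0.73.

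Il6st encodes gp130, the signalling chain of the receptor, at chr13:112464070-112510086 on the plus strand (GRCm38). The WT libraries read 2481 and 2521 at day 0, 805 and 853 at day 2, and 2928 and 2792 at day 4. The KO-1 libraries read 3409 and 2709, then 2498 and 2657, then 2972 and 2758, and those of KO-2 2680 and 2871, then 2842 and 3162, then 2304 and 2425. Both WT libraries of day 2 stood below all the others. WT cells lost gp130 RNA 3.02-fold by day 2 (-1.15 ± 0.1, limma adjusted p = 2.70e-08) and regained it 3.45-fold by day 4 (1.31 ± 0.1, limma adjusted p = 2.64e-09). In Nsd1-KO cells the differences from day 0 were -0.05 ± 0.07 at day 2 and -0.13 ± 0.07 at day 4, with overlapping libraries. The day 2 response differed between genotypes by 1.1 ± 0.13 (limma adjusted p = 4.49e-06), with 0.95 in KO-1 and 1.24 in KO-2. At day 2 Nsd1-KO cells held 3.37 times the WT level (1.27 ± 0.09, limma adjusted p = 7.20e-10), while at day 0 and day 4 the differences were 0.18 ± 0.09 and -0.11 ± 0.09 and were not called.

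Jak1 and Jak2 encode the kinases attached to these chains, at chr4:101152367-101265282 on the minus strand and chr19:29251828-29313080 on the plus strand (GRCm38). Jak1 lay between 955 and 1680 in WT and between 1531 and 2268 in Nsd1-KO libraries, and it passed both thresholds in no comparison when all libraries were fitted on VST values. Its WT means were 1595 at day 0, 964 at day 2 and 1525 at day 4. At day 2 its level in Nsd1-KO cells was 1.7 times that of WT cells (0.54 ± 0.06, limma adjusted p = 6.00e-07), just under the fold threshold. Jak1 was called there with KO-2 alone, at 0.6, with libraries centred on the median, at 0.59, and by limma-voom, at 0.76.

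Jak2 moved in another way. Its WT libraries read 257 and 268 at day 0, 189 and 196 at day 2, and 727 and 689 at day 4, a 2.7-fold rise over day 0 (0.71 ± 0.11, limma adjusted p = 9.89e-06) and a 3.68-fold rise over day 2. The KO-1 libraries read 334 and 268, then 309 and 338, then 488 and 417, and those of KO-2 364 and 375, then 519 and 574, then 404 and 437. No Nsd1-KO library reached the WT level of day 4. The change from day 2 to day 4 was 0.88 in WT and 0.02 in Nsd1-KO cells and differed by -0.87 ± 0.13 (limma adjusted p = 3.41e-05). Against WT the Nsd1-KO level was 2.26 times as high at day 2 (0.49 ± 0.09) and 1.62-fold lower at day 4 (-0.38 ± 0.09). Neither passed the fold threshold when all libraries were fitted on VST values, and limma-voom called both, with 1.13 and -0.7. The day 2 difference of Jak2 was 0.3 with KO-1 alone and 0.67 with KO-2 alone, the second past both thresholds. The clones differed at day 2, where KO-1 was 1.69-fold lower than KO-2 (-0.37 ± 0.06, limma adjusted p = 1.64e-03).

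Stat3, the transcription factor of the pathway, lies at chr11:100885098-100939540 on the minus strand (GRCm38). Its WT libraries read 1901 and 2003 at day 0, 303 and 331 at day 2, and 970 and 899 at day 4. Its KO-1 libraries read 3255 and 3005, then 489 and 559, then 604 and 617, and those of KO-2 2782 and 2690, then 481 and 483, then 454 and 512. Nsd1-KO libraries were above those of WT at day 0 and day 2 and below them at day 4, with no overlap at any day. The fall by day 2 was of like size in both, 6.16-fold in WT (-1.6 ± 0.08, limma adjusted p = 5.51e-12) and 5.83-fold in Nsd1-KO cells (-1.75 ± 0.06, limma adjusted p = 7.03e-15), and its difference, -0.15 ± 0.1, was not called. By day 4 the WT level was back at 47.9% of day 0 and the Nsd1-KO level at 18.6%. The day 4 response differed by -0.93 ± 0.1 (limma adjusted p = 4.14e-07), with -0.92 in KO-1 and -0.94 in KO-2. Between genotypes the differences at day 0, 2 and 4, 0.47 ± 0.07, 0.32 ± 0.07 and -0.46 ± 0.07, had limma adjusted p = 3.75e-05, 9.35e-04 and 2.06e-05 but stayed under the fold threshold. Limma-voom, with 0.58, 0.66 and -0.78, called all of them.

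Socs3, the feedback inhibitor, lies at chr11:117966079-117970047 on the minus strand (GRCm38). It had the largest VST difference from day 0 of the 9 genes in both genotypes at both days. The WT libraries read 2279 and 2122 at day 0, 114 and 146 at day 2, and 169 and 224 at day 4. The KO-1 libraries read 3067 and 2789, then 129 and 119, then 205 and 198, and those of KO-2 3347 and 3695, then 155 and 124, then 215 and 202. Before withdrawal the Nsd1-KO libraries were all above those of WT, and afterwards the genotypes overlapped. The level fell 16.9-fold in WT by day 2 (-2.21 ± 0.08, limma adjusted p = 5.48e-14) and 24.5-fold in Nsd1-KO cells (-2.65 ± 0.06, limma adjusted p = 2.06e-17). At day 4 it was at 8.92% of day 0 in WT and 6.35% in Nsd1-KO cells. The difference at day 0 was 0.45 ± 0.07 (limma adjusted p = 7.69e-05), under the fold threshold, and those at day 2 and day 4 were 0.01 ± 0.07 and 0.03 ± 0.07.

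Socs3 was also the 1 gene of the 9 whose promoter window held TTCNNNGAA, and for that reason its sequence is shown. RefSeq promoter windows of 300 bases on GRCm38.p6, 250 before and 50 after a start, were matched by symbol for 9 of 9 genes and searched for TTCNNNGAA, which reads the same on both strands in form. The motif was in 8.3% of all 32851 windows searched, or in 9.55% of 27025 genes. The stricter TTCCNGGAA, a subset of it, was in 1.15% of windows and in none of the windows of the 9 genes. Of the forms with another spacing, TTCNNGAA was in the window of Jak2 alone among the 9 genes and in 8.52% of windows, and TTCNNNNGAA was in none of the 9 and in 6.95% of windows. The 250 bases before the Socs3 start, chr11:117969367-117969616 on the minus strand, follow with the motif in capitals.
Socs3: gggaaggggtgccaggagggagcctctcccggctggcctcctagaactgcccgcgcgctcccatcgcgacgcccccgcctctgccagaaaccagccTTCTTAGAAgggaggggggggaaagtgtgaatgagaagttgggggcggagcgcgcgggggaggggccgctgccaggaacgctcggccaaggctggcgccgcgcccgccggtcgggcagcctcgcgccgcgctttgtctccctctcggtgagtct
The motif lies 154 to 146 bases before that start, at chr11:117969512-117969520. In the GENCODE M21 annotation it is 326 bases before the start of the coding transcript, in no exon, and within the span of 1 noncoding Socs3 transcript. The whole Socs3 window lies upstream of that coding start, so that the bases next to the coding start were not searched. Which start these cells use was not tested. A match of letters is a description, and Stat3 binding was not analysed here. The other 8 genes, among them the strongly lowered Bcl3 and Stat3, had no TTCNNNGAA in these windows, which says nothing of sites elsewhere.

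Pim1 and Pim3 encode related serine/threonine kinases that promote survival, at chr17:29490753-29496112 and chr15:88862186-88865726, both on the plus strand (GRCm38). Pim1 lay between 1696 and 3698 in WT and between 2148 and 3393 in Nsd1-KO libraries. With all libraries fitted on VST values, it was called in the added WT comparison alone, with a rise of 2.08-fold from day 2 to day 4 (0.85 ± 0.1, limma adjusted p = 3.92e-07). From day 0 its WT differences were -0.52 ± 0.1 at day 2 and 0.33 ± 0.1 at day 4, and those in Nsd1-KO cells -0.22 ± 0.07 and 0.06 ± 0.07, none of them called. The change from day 2 to day 4 differed between genotypes by -0.56 ± 0.12 (limma adjusted p = 1.01e-03), just under the fold threshold. That difference for Pim1 passed both thresholds with KO-2 alone and with libraries centred on the median, at -0.59 in each, by limma-voom, at -0.7, and without any 1 of 5 libraries, either day 2 replicate of KO-1, WT day 4 replicate 2 and either day 4 replicate of KO-2, at -0.58 to -0.62. Limma-voom called the WT day 2 difference of Pim1 from day 0, at -0.66, and that of Jak1 in WT cells at day 2, at -0.72.

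Pim3 fell in both genotypes, but by unequal steps. The WT libraries read 4982 and 4486 at day 0, 1199 and 1167 at day 2, and 2587 and 2578 at day 4. The KO-1 libraries read 4042 and 4465, then 2097 and 1971, then 1400 and 1738, and those of KO-2 4368 and 4476, then 2257 and 1963, then 1828 and 1691. WT cells went down and part of the way back, and in Nsd1-KO cells every day 4 library was below every day 2 library. WT lost 4-fold by day 2 (-1.59 ± 0.08, limma adjusted p = 9.25e-12) and Nsd1-KO 2.09-fold (-0.89 ± 0.06, limma adjusted p = 3.06e-10), a difference in response of 0.7 ± 0.1 (limma adjusted p = 5.73e-05). At day 4 the levels were 54.6% and 38.4% of day 0. Nsd1-KO cells were 1.75 times as high as WT at day 2 (0.59 ± 0.07, limma adjusted p = 1.46e-06) and 1.55-fold lower at day 4 (-0.5 ± 0.07, limma adjusted p = 1.13e-05). The day 2 call lies at the edge of the fold threshold. It was lost with KO-1 alone, at 0.57, under quantile normalization, at 0.5, and without KO-2 replicate 1 of day 2, at 0.56. Limma-voom also called the day 4 difference, at -0.63.

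Bcl3, a nuclear IkB-family protein that acts with NF-kB subunits, lies at chr7:19808462-19822770 on the minus strand (GRCm38). The WT libraries read 734 and 650 at day 0, 42.4 and 22.7 at day 2, and 69.4 and 89.7 at day 4. The KO-1 libraries read 658 and 920, then 22.4 and 5.08, then 7.89 and 22.4, and those of KO-2 1072 and 1105, then 17.9 and 14.8, then 32.2 and 16.4. As a share of day 0, Bcl3 had the lowest mean of the 9 genes at day 2, at 4.7% in WT and 1.6% in Nsd1-KO cells. In WT its libraries, 3.28% and 6.12%, overlapped those of Socs3, 5.18% and 6.63%, and at day 4 Socs3, at 8.92%, was below Bcl3, at 11.5%. The levels after withdrawal rest on few counts, where VST differences are compressed. The fall by day 2 was 21.3-fold in WT (-1.5 ± 0.11, limma adjusted p = 1.38e-09) and 62.4-fold in Nsd1-KO cells (-1.9 ± 0.08, limma adjusted p = 1.53e-13). At day 4 it was 8.7-fold in WT and 47.6-fold in Nsd1-KO cells, and this response differed by -0.62 ± 0.14 (limma adjusted p = 1.50e-03). That call was lost with KO-1 alone, at -0.51, under quantile normalization, at -0.53, and without any 1 of 5 libraries, WT day 0 replicate 2, WT day 4 replicate 2, KO-1 day 4 replicate 1 and either day 0 replicate of KO-2, at -0.56 to -0.58. All 4 Nsd1-KO libraries of day 4 were below both of WT, 4.03-fold in the mean, with -0.36 ± 0.1 on VST values (limma adjusted p = 4.98e-03), under the fold threshold, and -2.06 by limma-voom, which called it.

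The markers of other cells also changed, and their part in these results was not tested. The summed level of 12 fibroblast markers, which feeder cells would carry, was 3588 to 3694 in WT and 5498 to 6458 in Nsd1-KO cells at day 0. Of these markers Col1a1, Col3a1 and Col1a2 were called higher in Nsd1-KO cells at day 0 and Pdgfrb lower, and Dcn and Lum had at most 3 counts in both WT libraries, and Lum in all 4 Nsd1-KO libraries. The sum was 1284 to 1440 in WT and 765 to 1003 in Nsd1-KO cells at day 2, and 3792 to 3949 against 948 to 1671 at day 4. The sum of 8 primitive streak markers was 35774 to 36629 in WT and 1931 to 2539 in Nsd1-KO cells at day 4, the day at which the response of Stat3 and Bcl3 differed between genotypes. It was 470 to 494 and 371 to 391 at day 2. Mesp1, a mesoderm factor, had at most 3 counts in each Nsd1-KO library of day 4. The 6 neuroectoderm markers summed to 4569 to 4879 in WT and 1209 to 1900 in Nsd1-KO cells at day 2, and to 5456 to 5895 and 2201 to 3360 at day 4. By gene, 5 of the 6 lay above WT at day 4, with a median difference of 0.16, Sox1 being called higher and Nes lower. The 9 extraembryonic endoderm markers summed to 5645 to 5752 in WT and 6689 to 8867 in Nsd1-KO cells at day 0. Of the 9, however, 2 lay above WT at day 0 and 7 below, with a median difference of -0.06. Lamb1 alone was called there, as higher. The sum was 5221 to 5422 in WT and 4931 to 5400 in Nsd1-KO cells at day 2. It was 9606 to 10309 in WT and 5629 to 5875 in Nsd1-KO cells at day 4. The pluripotency markers, given above for day 0 and day 4, summed to 36718 to 39172 in WT and 38741 to 45487 in Nsd1-KO cells at day 2, the day of the Il6st and Pim3 calls. Of these 10 markers, Esrrb, Zfp42, Sox2 and Nanog were called higher in Nsd1-KO cells at day 2 and Pou5f1 lower. The sum therefore holds opposite differences. At day 4, 7 of the 10 were called higher and 1, Tdgf1, lower.

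The clones KO-1 and KO-2 were compared with each other at each day. By limma on VST values, 0 of the 9 genes were called at any day, although an unadjusted p under 0.05 was found for 5 of them before withdrawal and for 5 and then 4 of them after it. Of all 20703 genes, 3057, 2539 and 5234 had such a p at day 0, 2 and 4. Limma-voom called 1 of the 9, Jak2 at day 2, at -0.75, and 48 of all genes at that day. On VST values 0.029%, 0.0435% and 0.251% of all genes were called in either direction at day 0, 2 and 4. With 2 libraries a clone, a difference under the thresholds does not show that the clones are alike.

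The other genes of the pathway were counted as fixed lists, 72 of 73 listed genes being measured. Most were not called after withdrawal. In WT cells at day 2, 4 were called higher and 13 lower, against 2.66% and 4.02% of all genes. At day 4 there were 13 higher and 13 lower, against 7.68% and 6.16%. In Nsd1-KO cells 3 were higher and 13 lower at day 2, against 1.43% and 1.77% of all genes, and 7 higher and 9 lower at day 4, against 3.44% and 3.06%. Their median difference in WT was -0.17 at day 2 and 0.04 at day 4. Among the 24 genes listed as STAT3 targets in mESCs, of which Sall4 is also a pluripotency marker, the number called lower was 11 at day 2 and 8 at day 4 in WT, and 12 and 8 in Nsd1-KO cells. In the other direction, Pim2 and Myc were called higher in WT at day 2, and Ccnd1, Pim2, Myc, Zfp36 and Bcl2l1 at day 4, while in Nsd1-KO cells Pim2 and Ccnd1 were called higher at both days. Of 7 ligands, 8 other receptor chains, 15 inhibitors and 10 adaptors, none was called lower at day 2 in either genotype. With 4.02% of all genes called lower in WT and 1.77% in Nsd1-KO cells, this is near the share for lists so short. Several of these genes also had few counts, where VST differences are compressed. The ligand gene Lif itself read 154 ± 0.268, 55.3 ± 27.8 and 172 ± 15.2 in WT at day 0, 2 and 4, and 75.8 ± 16.9, 90.3 ± 21.5 and 137 ± 11.7 in Nsd1-KO cells. It was not called in any comparison fitted on all libraries with VST values, which are compressed at such levels.

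**Figure D4:**
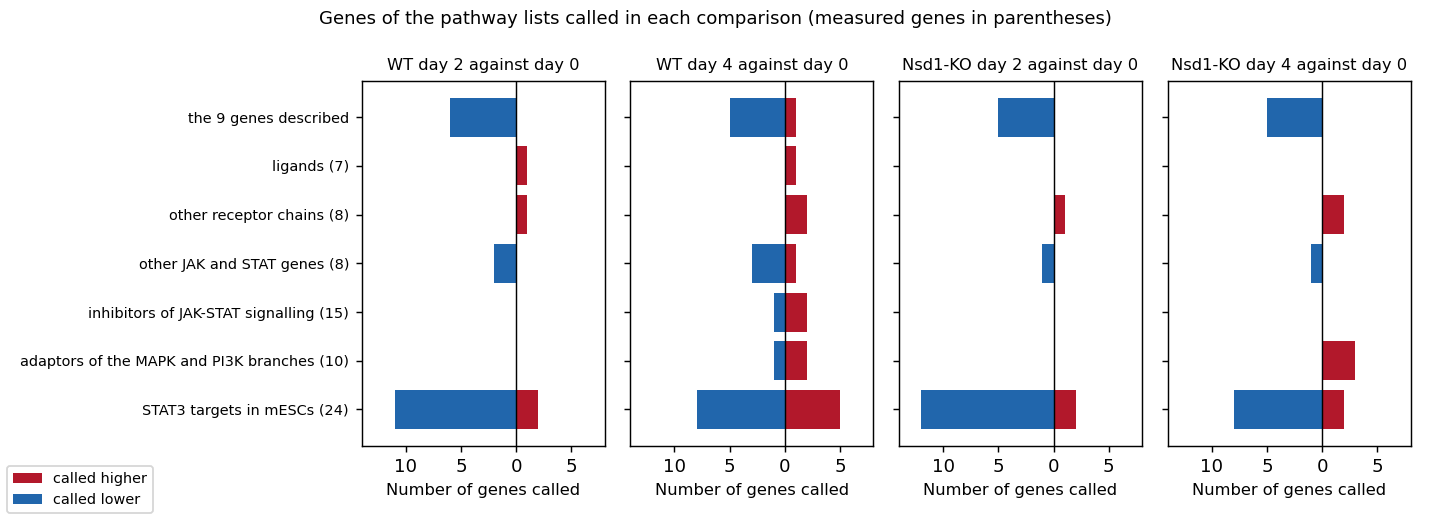
Number of genes called higher (right) and lower (left) against day 0 in the 9 genes described and in 6 lists of other pathway genes, in WT and Nsd1-KO cells at day 2 and day 4. The list of 24 STAT3 targets held 11 lowered genes in WT and 12 in Nsd1-KO cells at day 2.

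Among these other genes the lowest WT differences at day 4 against day 0 were those of Klf4 and Tfcp2l1, transcription factors of naive pluripotency. Klf4 fell from 7769 ± 84.9 to 107 ± 6.45 (SD, n = 2; -3.87 ± 0.13 SE, limma adjusted p = 1.50e-15) and Tfcp2l1 from 10563 ± 215 to 414 ± 28.5 (-3.55 ± 0.25, limma adjusted p = 1.52e-10). Next came the immediate early genes Egr1 (-2.42) and Fos (-1.65) and the docking protein gene Gab1 (-1.57). Klf4 was at 604 ± 195 and Tfcp2l1 at 1790 ± 903 in Nsd1-KO cells at day 4, and Tfcp2l1 was called between the clones. The highest were Ghr (2.29), the growth hormone receptor, Ccnd1 (1.32), cyclin D1, Pim2 (1.3), the third Pim kinase, Cntfr (1.26), the receptor chain for ciliary neurotrophic factor, and Ptpn11 (1.25), the phosphatase SHP2.

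Between genotypes at day 4, 8 of the 72 were called higher and 6 lower in Nsd1-KO cells, against 3.67% and 3.91% of all genes. Ghr was lowest, at 367 ± 28.4 (n = 4) against 1681 ± 7.08 in WT (-1.34 ± 0.05, limma adjusted p = 7.51e-15), followed by Klf5 (-1.25), Junb (-0.91), Zfp36 (-0.87) and Myc (-0.8). Pim2 was highest, at 7201 ± 442 against 2350 ± 100 (1.4 ± 0.09, limma adjusted p = 1.39e-10), so that it lay on the other side of WT than Pim3. Gab1 (1.29), Tfcp2l1 (1.24), Socs2 (1.12) and Smad7 (1.07) were also higher. Socs2, an inhibitor related to Socs3, was above WT at every day, at 1630, 1962 and 1959 against 654, 804 and 622. At day 0, 4 of the 72 were called higher and 1 lower, against 1.73% and 0.879% of all genes. At day 2 it was 9 higher and 1 lower, against 4.01% and 2.37%.

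Likeness of pattern was described by Pearson's r of VST values over the 18 libraries, which share genotype and day, among 15527 genes above the 25th percentile of mean level. Socs3 was most like Bcl3 (r = 0.984), followed by Krt17 (0.984) and Jak3 (0.982), and Bcl3 most like Socs3, then Icam1 (0.982) and Krt17 (0.981). Within the 9 genes, Stat3, Socs3, Pim3 and Bcl3 correlated with each other at 0.9 to 0.98, whereas Jak2 correlated with Socs3 at -0.32 and with Lifr at -0.15. Jak2 stood nearer to Pim1, at 0.70, and Il6st, at 0.62. Lifr was most like Fam117b (0.988), Sema4b (0.986) and Arid5b (0.984). Il6st was most like Eif2ak2 (0.978), Sptan1 (0.973) and Sertad2 (0.967), and Stat3 most like Wsb2 (0.987), Pros1 (0.982) and Col12a1 (0.976). The nearest genes of Pim3 were Fzr1 (0.985), Sec14l1 (0.98) and Nek6 (0.976), and those of Jak1 were Stau1 (0.948), Pdgfa (0.941) and Galnt2 (0.94). Those of Jak2 were Sh3pxd2a (0.933), Pwwp3b (0.927) and Erlin2 (0.925).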

How the data were processed

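RNA-seq of polyadenylated RNA from 18 libraries was deposited by the authors as log2-scale variance stabilized (VST) values. The authors trimmed reads with Trim Galore 0.6.7, aligned them to mm39 with STAR 2.7.11a, counted primary, nonduplicated fragments on exons with featureCounts 2.0.6, dropped genes of low mean count and applied the VST of DESeq2 1.42.0. A count of 0 has the value 8.359. Inverting the VST gave counts that were whole within 0.001 for 100.0% of values, and the size factors. Of counts from 1 to 20, 74.9% were even, for a reason not found. Depth was 9309874 to 23921193 counts. All groups come from the sample labels.

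VST values were fitted with limma 3.58.1 (R 4.3.3, trended prior) in 6 groups of genotype and day, with both clones pooled, and Benjamini-Hochberg adjustment over 20703 genes. Genes were called at adjusted p under 0.01 and a difference beyond 0.58. Fits were tested on simulated data. Normalized counts are the recovered counts over size factors. Exon lengths and positions came from GENCODE M21 on GRCm38, an older build than mm39, and promoter windows from RefSeq. Levels per kilobase used union exon length. Alternatives changed the groups in the fit, clones, replicate block, low-value filter, scaling, prior, count scale, thresholds and libraries. The members and lists were chosen with earlier results of these data known. The 9 genes are named in every comparison. Other pathway genes are named where they were among the 5 highest or 5 lowest called in WT at day 4 against day 0 or in Nsd1-KO against WT at day 4. Lif, the levels of Klf4, Tfcp2l1 and Socs2 at other days, and Mesp1, Dcn and Lum were named after their values were seen. Il6, S100a4 and Fap were not analysed here. P-values measure the spread between the libraries of a group, labelled as biological replicates, whose separate origin is not described further. For each gene this spread is 1 estimate shared by all 6 groups, to which the 12 Nsd1-KO libraries add more than the 6 WT libraries. In the Nsd1-KO groups it also holds differences between the clones, whose libraries are counted as separate replicates. The p-values and SE of the WT comparisons therefore rest in large part on the Nsd1-KO libraries. The genes most like Pim1 in pattern are not reported here.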

Additional observations from a re-analysis of the deposited data

Results flagged for a closer look

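In 8 instances the response to withdrawal differed between genotypes by the test of the difference in limma. At day 2 against day 0 these were Il6st (1.1, adjusted p = 4.49e-06) and Pim3 (0.7, adjusted p = 5.73e-05). At day 4 against day 0 they were Stat3 (-0.93, adjusted p = 4.14e-07) and Bcl3 (-0.62, adjusted p = 1.50e-03). From day 2 to day 4 they were Il6st (-1.38, adjusted p = 5.56e-08), Pim3 (-1.09, adjusted p = 8.05e-08), Jak2 (-0.87, adjusted p = 3.41e-05) and Stat3 (-0.78, adjusted p = 4.70e-06).

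In 1 of 27 sets of 4 Nsd1-KO libraries, 1 library lay apart from the rest: Stat3 at day 2 read 559 in KO-1 replicate 2, and its gap to the next library was 0.896 of the range, above Dixon's 95% critical value for 4 values. Chance flags about 1 in 20 such sets.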

How the results depend on the processing

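Each of 108 differences, 9 genes in 12 comparisons, was recomputed under each alternative that applies to it. Of 2970 values, 2901 kept their direction and side of the thresholds, 37 newly passed the thresholds, 12 no longer passed and 20 changed sign, none of the last among the 40 called differences. Many of these fits left out a library of a group outside the comparison, where the difference cannot change and only its p can. The number that stayed the same is therefore partly fixed in advance and is no measure of robustness. The counts of called genes in the time comparisons against day 0 stayed within 1.5 times under each alternative run. With adjusted p under 0.05 and no fold threshold, 5 genes were called between genotypes at day 0, 7 at day 2 and 6 at day 4, in place of 1, 3 and 1. The same setting gave 5 for the day 2 and 5 for the day 4 response difference, in place of 2 and 2, and 4 for Nsd1-KO day 4 against day 2, in place of 0. The share of all genes at this setting is not reported here. An unadjusted limma p under 0.05 was found for 8150, 10823 and 9142 of all 20703 genes between genotypes at day 0, 2 and 4. For the day 2 and day 4 response differences it was found for 6929 and 7468, and for Nsd1-KO day 4 against day 2 for 6993. Limma-voom gave 2, 6 and 5 between genotypes, 4 for the day 4 response difference, and 1 for Nsd1-KO day 4 against day 2. Of all genes it called 2752, 4949 and 4957 between genotypes, in place of 541, 1321 and 1569. For the day 4 response difference it called 3085 of all genes, in place of 1435. It gave 1 between the clones, in place of 0. KO-2 alone gave 0 at day 0, 5 at day 2 and 1 for Nsd1-KO day 4 against day 2. The share of all genes called with either clone alone, or with 1 library left out, is not reported here. Counts from those fits thus have no background beside them. For the day 4 response difference KO-1 alone and quantile normalization gave 1 each. Leaving out 1 library gave 1 to 2 there, 2 to 3 for genotypes at day 2, 2 to 3 for the day 2 response difference and 4 to 5 for that from day 2 to day 4. Differences of VST values are smaller than those of counts, and the cause of the other shifts was not tested. The median of all genes under limma-voom was -0.17 in WT day 4 against day 2, in place of -0.02. Between genotypes at day 2 it was -0.1424, in place of -0.016. What sets these medians was not tested. The limma-voom values of the 9 genes use the size factors and are given without a shift by these medians.

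Signs changed for small, uncalled values. These were Lifr in WT day 4 against day 2 (-0.124 to 0.053 with 1 library left out, 0.025 without WT day 4 replicate 2), Il6st in Nsd1-KO cells (day 2 against day 0: 0.093 with KO-2 alone, -0.104 to 0.012 with 1 library left out, the highest without KO-1 day 0 replicate 1; day 4 against day 2: 0.125 with KO-1 alone) and between genotypes at day 4 (0.002 with KO-1 alone), and Jak1 in WT day 4 against day 0 (-0.104 to 0.01, the highest without WT day 0 replicate 2). Jak2 in Nsd1-KO day 4 against day 2 gave -0.195 with KO-2 alone and -0.055 to 0.092 with 1 library left out, being below 0 without KO-1 day 2 replicate 1, day 2 replicate 2 or day 4 replicate 1. The Stat3 day 2 response difference was 0.08 by limma-voom. Socs3 between genotypes at day 2 gave -0.019 with KO-1 alone, -0.046 to 0.06 with 1 library left out (below 0 without WT day 2 replicate 1 or KO-2 day 2 replicate 1), and at day 4 -0.047 to 0.098 (below 0 without WT day 4 replicate 1). Its response difference from day 2 to day 4 was -0.008 with libraries centred on the median and -0.054 to 0.091 with 1 library left out, being below 0 without WT day 2 replicate 2 or WT day 4 replicate 1. Pim1 in Nsd1-KO day 4 against day 0 was -0.083 with KO-1 alone.

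Replicate numbers did not pair the libraries: over 36 pairs of groups the deviations of same-numbered libraries correlated at -0.612 to 0.636, with a mean of -0.048. With the number as a replicate block the counts were 6 and 6 for WT at day 2 and day 4, 5 and 5 for Nsd1-KO, and 1, 3 and 1 between genotypes, the same as without it. Depth limits Bcl3 most, at 5.08 to 89.7 normalized counts after withdrawal.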
